A study of Mus musculus with 6 samples.

Results

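The proteasome genes of brown adipose tissue (BAT) were taken as every row of the count table whose symbol begins with Psm, one of the letters a to g and a digit, which gave 50 of the 35976 genes in the table. Of these, Psmb8, Psmb9, Psmb10, Psme1 and Psme2 form the immune-induced subset, and the other 45 are mostly the standard subunits, activators and assembly chaperones. RNA sequencing was carried out on BAT, a fat depot that produces heat, of 3 AKO mice and 3 wild-type (WT) littermates. AKO mice lacked Cars2, the mitochondrial cysteinyl-tRNA synthetase, in adipose tissue, through floxed Cars2 alleles and a Cre driven by the Adiponectin promoter, which is active in adipocytes and not in the other cells of the tissue. The study labels wild-type controls of AKO mice Flox, so the WT mice here may also have carried floxed Cars2 alleles. All mice, of both genotypes, were held at 4 °C for 4 h before the tissue was frozen, so no library shows BAT at room temperature, and the labels give no age for these mice. The comparison addresses the part of adipocyte Cars2 in BAT during acute cold, here for the proteasome genes.

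The proteasome is the large protease that degrades proteins tagged with ubiquitin. Its 20S core is a barrel of stacked rings, with outer rings of α subunits, coded by the Psma genes, that gate entry and inner rings of β subunits, coded by the Psmb genes, among which Psmb5, Psmb6 and Psmb7 carry the proteolytic sites. The 19S cap, with its Psmc ATPases and Psmd non-ATPases, binds, unfolds and threads substrates into the core, and core and cap together make the 26S proteasome. Under interferon-γ and constitutively in many immune cells, Psmb8, Psmb9 and Psmb10 take the places of Psmb5, Psmb6 and Psmb7 to form the immunoproteasome, which is known for producing peptides for MHC class I. The interferon-inducible Psme1 and Psme2 form the PA28 activator. Brown adipocytes are known to raise proteasome activity in the cold through the transcription factor NFE2L1, which sustains the transcription of standard subunits.

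The start-site regions of a few genes are shown because these genes differed between the genotypes or hold the letters of an interferon or antioxidant response motif. Each runs from 250 bases before to 50 bases after the start site, 5′ to 3′ on the gene's own strand (RefSeq, GRCm38.p6), and windows of this kind were found for 42 of the 50 proteasome genes. In Psmb9 (chr17:34187281-34187580, minus strand) the capitals at the left end mark 25 bases that are transcribed, on the other strand, as the start of the peptide transporter gene Tap1, and those at the right end the first 50 transcribed bases of Psmb9. Both genes are read outward from start sites 226 bases apart. In Psmb8 (chr17:34197945-34198244, plus strand), on the same stretch of the chromosome just past Tap1, the capitals mark a match to the gamma-activated site, TTCNNNGAA, 97 bases before the start site. In Psme1 (chr14:55578244-55578543, plus strand) they mark the reverse complement of the core of the interferon-stimulated response element, GAAANNGAA, beginning 11 bases after the start site, and in Psme4 (chr11:30771525-30771824, plus strand) the reverse complement of the core of the antioxidant response element, TGACNNNGC, 7 bases before it.
Psmb9: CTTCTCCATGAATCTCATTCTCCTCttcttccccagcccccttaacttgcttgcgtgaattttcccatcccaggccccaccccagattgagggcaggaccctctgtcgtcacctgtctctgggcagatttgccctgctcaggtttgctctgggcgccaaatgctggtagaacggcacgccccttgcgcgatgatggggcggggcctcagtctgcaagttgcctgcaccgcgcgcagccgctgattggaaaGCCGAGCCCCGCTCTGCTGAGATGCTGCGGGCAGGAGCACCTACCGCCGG
Psmb8: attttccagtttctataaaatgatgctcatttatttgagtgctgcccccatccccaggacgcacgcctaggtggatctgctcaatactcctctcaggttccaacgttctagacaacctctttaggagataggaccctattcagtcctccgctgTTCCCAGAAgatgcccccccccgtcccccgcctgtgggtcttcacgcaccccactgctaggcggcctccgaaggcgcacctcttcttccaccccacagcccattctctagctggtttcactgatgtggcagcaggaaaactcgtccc
Psme1: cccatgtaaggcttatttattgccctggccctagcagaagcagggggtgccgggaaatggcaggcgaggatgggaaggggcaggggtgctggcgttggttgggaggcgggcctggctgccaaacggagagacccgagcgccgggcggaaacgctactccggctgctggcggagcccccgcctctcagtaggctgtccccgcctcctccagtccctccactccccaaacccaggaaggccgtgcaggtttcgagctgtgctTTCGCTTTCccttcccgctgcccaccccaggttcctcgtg
Psme4: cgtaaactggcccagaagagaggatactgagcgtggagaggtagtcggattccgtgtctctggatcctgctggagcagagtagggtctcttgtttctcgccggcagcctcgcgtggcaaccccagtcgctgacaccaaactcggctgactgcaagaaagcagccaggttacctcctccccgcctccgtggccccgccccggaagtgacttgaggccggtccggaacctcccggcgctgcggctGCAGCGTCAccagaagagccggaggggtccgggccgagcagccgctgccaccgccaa

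Searched on both strands, with matches of different motifs allowed to overlap, TTCNNNGAA was found in 3 of 45 windows of proteasome genes (Psmb8, Psmd2 and Psmg1), against 8.3% of all 32851 windows. The letters GAAANNGAA were found in 7 of the 45 windows, those of Psmb3, Psmb4, Psmc2, Psmd4, Psmd9, Psme1 and Psmg4, against 8.56% of all windows. TGACNNNGC was found in 6 of them, those of Psmb5, Psmb6, Psmc6, Psmd9, Psmd12 and Psme4, against 12.4% of all windows. None of the 3 motifs was found in the windows of Psmb9 and Psmb10. These matches describe letters only.

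Total counts lay between 6540619 and 8135327 in AKO libraries and between 7447460 and 8461685 in WT libraries. Levels are given in CPM (counts scaled to a common library size, after TMM normalization). Fold changes are on the log2 scale, positive where AKO was higher, and come from edgeR with a standard error (SE). Cars2 was at 220, 248 and 132 CPM in AKO libraries, against 786, 459 and 632 CPM in WT libraries, so every library matched its genotype label. Ucp1, the heat-producing uncoupling protein of brown fat, was high in all libraries, at 6435, 4372 and 3154 CPM in AKO and 15620, 15110 and 14010 CPM in WT. Of the 13007 genes that passed the filter on low counts, 20.2% were called higher in AKO and 17.5% lower, at an edgeR adjusted p under 0.05. Every AKO library lay above every WT library in 25.7% of genes tested, and below in 24.4%, and the median log2 fold change over all of them was 0.01.

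Among the immune-induced subset, 3 of 5 rose in AKO BAT, the catalytic subunits Psmb8, Psmb9 and Psmb10, and none fell. Every AKO library lay above every WT library in 4 of the 5, against 25.7% of all genes tested. Among the 43 other proteasome genes tested, none rose and 12 fell (27.9%, against 17.5% of all genes tested), nearly all of them subunits of the 26S particle. The lower count turned on single libraries. Of the 43 genes, 5 were called lower without AKO replicate 3 or without WT replicate 3, against 12.6% and 12.1% of all genes. Without AKO replicate 2, WT replicate 1 or WT replicate 2 there were 7, against 14.5, 13.7 and 11.9% of all genes. Leaving out AKO replicate 1 gave 19, against 18.2% of all genes. Scaling by library size alone gave 6, against 12.4% of all genes. The median log2 fold change was 0.86 in the immune-induced subset and -0.21 in the 43 others. In all, 48 of the 50 genes passed the filter, of which 3 rose (6.25%, against 20.2% of all genes tested), 12 fell and 33 were not called. The median of the 48 stayed negative with any 1 library left out, at -0.28 to -0.13. The plot of fold changes by role shows these genes.

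**Figure D1:**
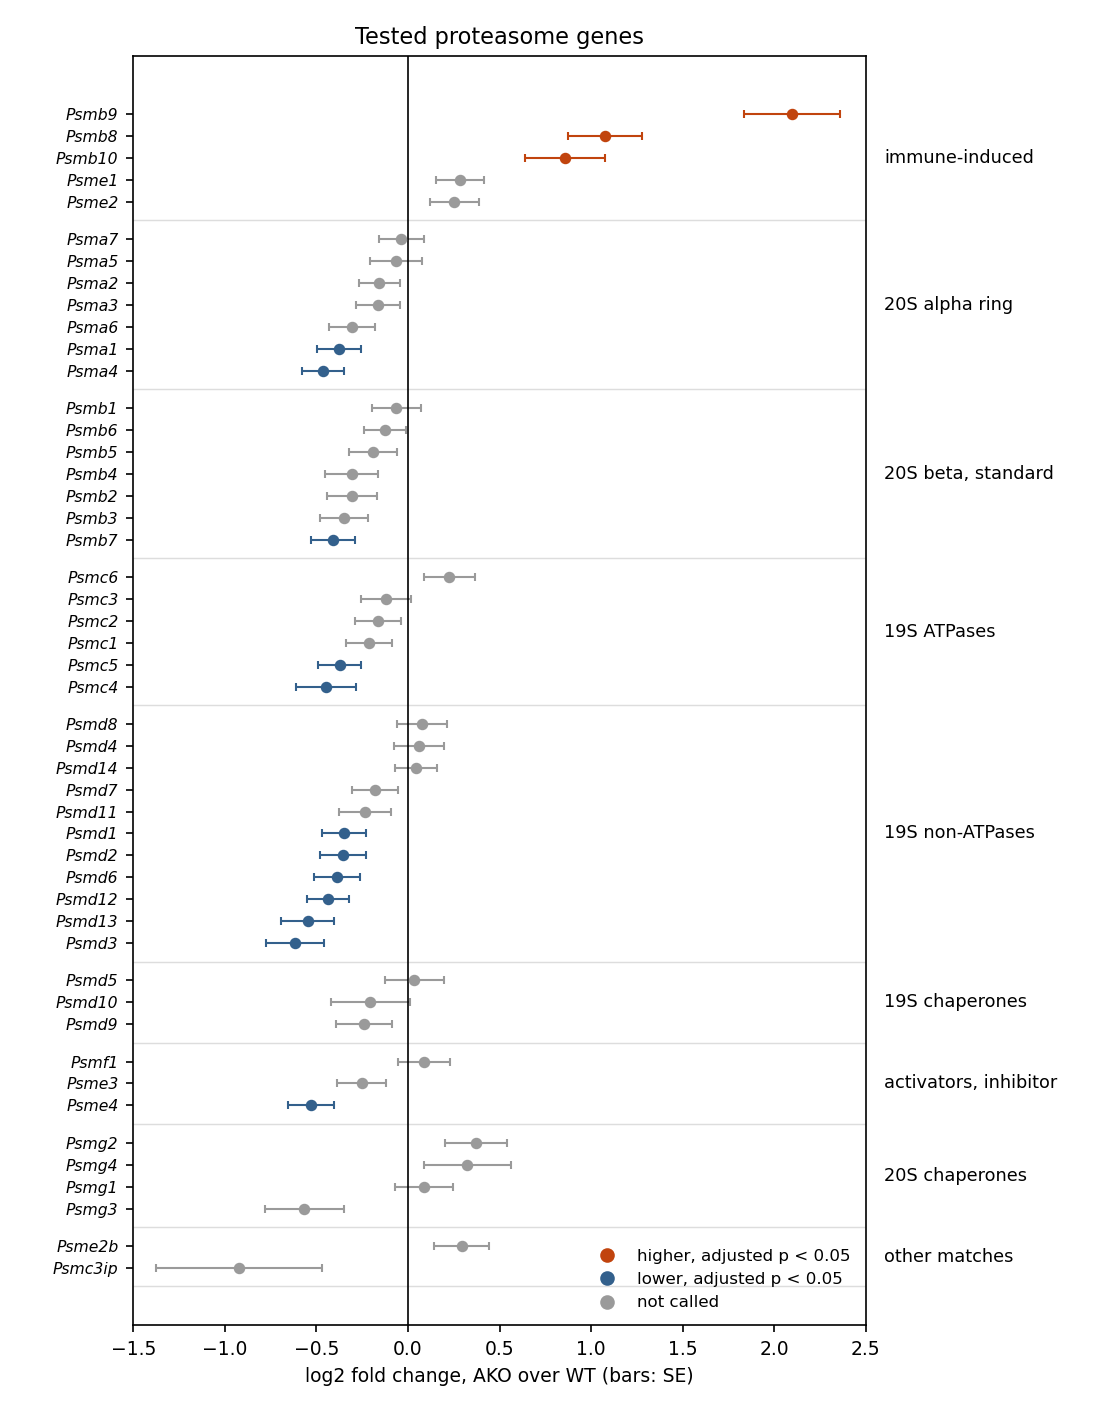
log2 fold change of AKO over WT with its SE (horizontal axis) for each of the 48 proteasome genes tested, grouped by role from top to bottom, with genes called higher or lower at an edgeR adjusted p under 0.05 in colour. Psmb9, Psmb8 and Psmb10 stand to the right at 2.10, 1.07 and 0.86, and the 12 called genes to the left lie between -0.62 and -0.35.

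Psmb9, also known as LMP2, takes the place of Psmb6 in the immunoproteasome. It lies on chromosome 17 from 34182030 to 34187330 (GRCm38.p6). Its level was 17.5, 13.0 and 15.8 CPM in AKO libraries, against 3.00, 2.55 and 5.33 CPM in WT libraries. All AKO libraries were well above all WT libraries, although the gene was low in both groups, with 146, 102 and 111 reads in AKO and 25, 20 and 39 reads in WT. The mean was 15.4 ± 2.30 CPM in AKO and 3.62 ± 1.49 CPM in WT (SD, n = 3 each), and edgeR gave 2.10 ± 0.26 (log2 fold change, SE) at an adjusted p = 7.60e-05. Of the 50-base stretches of its transcripts, 9.71% also occur in Tap1 on the opposite strand, and without a known strand setting reads there cannot be told apart. Tap1, its divergent neighbour, which carries peptides into the endoplasmic reticulum, was at 44.0, 22.5 and 29.2 CPM in AKO libraries, against 8.39, 6.88 and 9.15 CPM in WT libraries.

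Psmb8 (LMP7), which replaces Psmb5, lies on the same chromosome from 34198195 to 34201454, between Tap1 and Tap2. It had 47.2, 30.9 and 32.2 CPM in AKO libraries, against 17.1, 13.6 and 21.7 CPM in WT libraries. The groups did not overlap, and AKO replicate 1 was the highest of all. The gene rose by 1.07 ± 0.20 (SE) on the log2 scale (edgeR adjusted p = 0.00130). Psmb10 (MECL-1), which replaces Psmb7, lies on chromosome 8 from 105935728 to 105938392, apart from the other genes of the subset. It had 35.6, 19.4 and 25.5 CPM in AKO libraries, against 11.9, 15.0 and 17.8 CPM in WT libraries. Its groups did not overlap either, but AKO replicate 2 stood only slightly above the highest WT library. It rose by 0.86 ± 0.22 (SE; edgeR adjusted p = 0.00864) on the log2 scale, and by 0.60 without AKO replicate 1, where it was still called. Psmb8, Psmb9 and Psmb10 were called higher under each of the 15 alternative analyses.

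The PA28 genes Psme1 and Psme2 did not pass the test. Psme1 had 87.3, 70.5 and 66.9 CPM in AKO libraries, against 62.0, 63.7 and 58.7 CPM in WT libraries, with every AKO library above every WT library. On the log2 scale the difference was 0.29 ± 0.13 (SE; edgeR adjusted p = 0.102). Psme2 had 51.4, 56.9 and 42.6 CPM in AKO libraries, against 42.2, 42.8 and 41.7 CPM in WT libraries. The lowest AKO library lay within the WT values, at 0.25 ± 0.13 (SE) on the log2 scale (edgeR adjusted p = 0.152). Of the 50-base stretches of Psme2, 54.9% also occur in its near-copy Psme2b or in the predicted gene Gm7928, so its reads may have been split, and Psme2b itself was at 18.0 ± 1.35 CPM in AKO and 14.7 ± 0.659 CPM in WT (SD, n = 3 each). Whether PA28 and the catalytic subunits changed by different amounts was not tested.

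**Figure D2:**
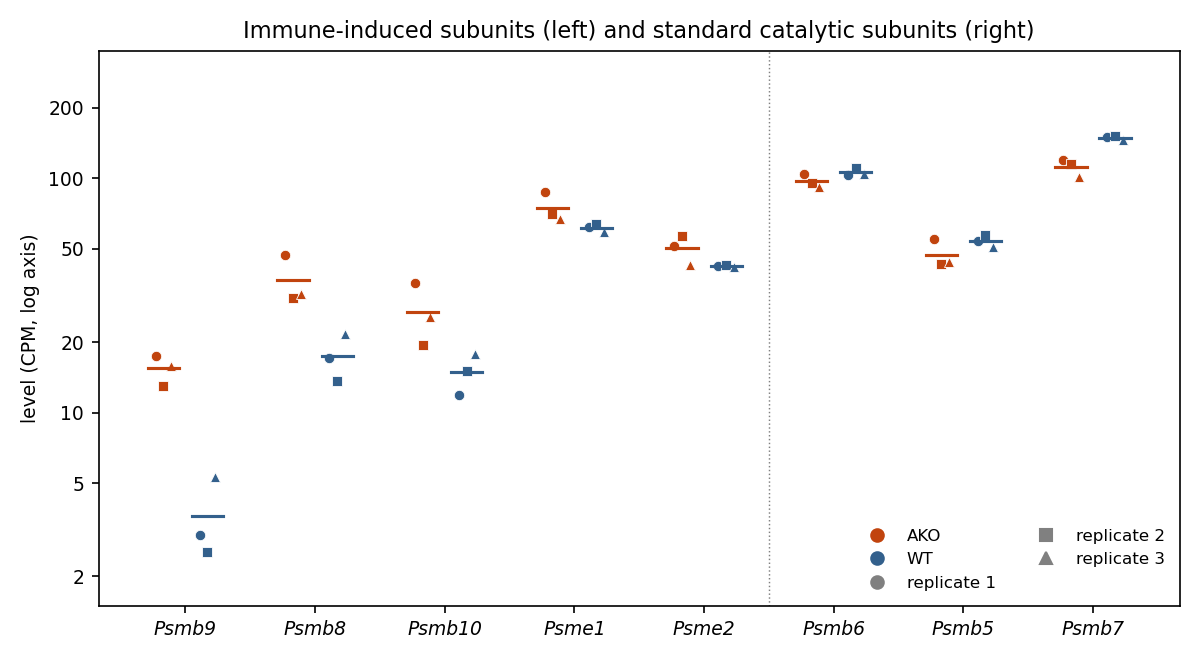
Level in CPM on a log axis of the 5 immune-induced genes (left of the dotted line) and the 3 standard catalytic subunits (right), with AKO libraries left of WT libraries for each gene, a symbol per replicate and a bar at the mean. AKO libraries lie above WT libraries in Psmb9, Psmb8, Psmb10 and Psme1, overlap them in Psme2, Psmb6 and Psmb5, and lie below them in Psmb7.

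The standard catalytic subunits did not rise. Psmb5, the chymotrypsin-like site, had 54.8, 43.1 and 43.8 CPM in AKO libraries, against 53.7, 57.4 and 50.7 CPM in WT libraries (log2 fold change -0.19 ± 0.13 SE, edgeR adjusted p = 0.281). Psmb6, the caspase-like site, had 104, 95.7 and 91.5 CPM in AKO libraries, against 103, 110 and 104 CPM in WT libraries (-0.13 ± 0.12 SE, edgeR adjusted p = 0.419). In both genes AKO replicate 1 reached the WT values. Psmb7, the trypsin-like site, fell, with 120, 115 and 101 CPM in AKO libraries, all below the 150, 151 and 146 CPM of WT libraries (-0.41 ± 0.12 SE, edgeR adjusted p = 0.0166). The call of Psmb7 was lost without AKO replicate 3 and without WT replicate 2, with an adjusted p of at most 0.0721 over all alternatives, and 28.1% of its 50-base stretches also occur in Nek6 on the opposite strand.

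Set against its standard counterpart within each library, each immune-induced subunit was higher in AKO. The log2 ratio of Psmb9 to Psmb6 counts was -2.57, -2.88 and -2.53 in AKO libraries, against -5.11, -5.43 and -4.29 in WT libraries, a difference of 2.28. For Psmb8 to Psmb5 it was -0.22, -0.48 and -0.45 in AKO libraries, against -1.65, -2.08 and -1.22 in WT libraries, a difference of 1.27. For Psmb10 to Psmb7 it was -1.75, -2.56 and -1.99 in AKO libraries, against -3.66, -3.33 and -3.04 in WT libraries, a difference of 1.24. In all 3 ratios the groups did not overlap, and an exact permutation test (two-sided) returned p = 0.10 for each, its smallest possible value with 3 libraries against 3 (0.10 when adjusted over the 3 ratios). Per kb of transcript, Psmb9 made up 8.56 ± 1.01% of the mRNA of Psmb9 and Psmb6 in AKO and 1.99 ± 0.831% in WT. Psmb8 made up 29.8 ± 2.09% of Psmb8 and Psmb5 mRNA in AKO and 15.2 ± 3.78% in WT, and Psmb10 17.3 ± 3.95% of Psmb10 and Psmb7 mRNA in AKO and 8.12 ± 1.596% in WT (SD, n = 3 each). The standard form thus stayed the more abundant mRNA in every library, on a per-length scale. Because 54.1% of the 50-base stretches of Psmb5 also occur in its pseudogene or other loci, the level of Psmb5, and with it the share of Psmb8, is less certain than the other shares.

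**Figure D3:**
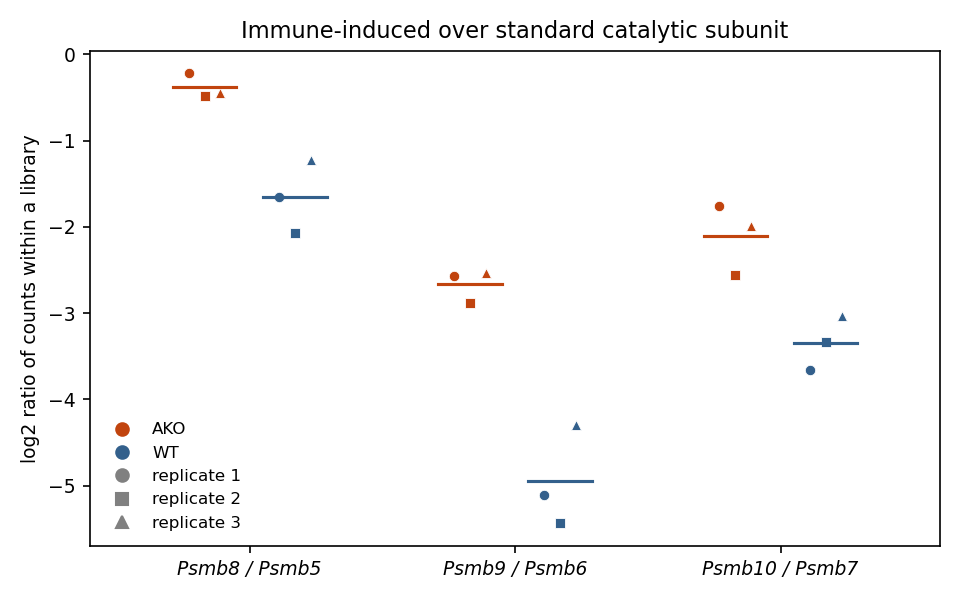
log2 ratio of counts within a library (vertical axis) of Psmb8 to Psmb5, Psmb9 to Psmb6 and Psmb10 to Psmb7, with AKO libraries left of WT libraries, a symbol per replicate and a bar at the mean. AKO libraries lie above WT libraries in each ratio, by 1.27, 2.28 and 1.24 between the means.

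Regulators of the same genes and their partners in peptide presentation rose with the catalytic subunits. Of 15 such genes listed, 14 were tested, and 12 rose, against 20.2% of all genes tested, and none fell. This list and the lists of markers, partners and pathway genes below were chosen with earlier results of these data known. The shares of the lists are descriptive only. The median of the 14 genes was 0.97 on the log2 scale. B2m, the light chain of MHC class I, had 1942, 1583 and 1628 CPM in AKO libraries, against 691, 646 and 753 CPM in WT libraries (log2 fold change 1.302 ± 0.14 SE, edgeR adjusted p = 2.67e-05). Nlrc5, the transactivator of MHC class I genes and of Psmb9, had 32.6, 23.4 and 25.9 CPM in AKO libraries, against 8.03, 7.13 and 10.1 CPM in WT libraries (1.70 ± 0.19 SE, edgeR adjusted p = 3.86e-05). In both genes all AKO libraries were above all WT libraries. Tap1 rose by 1.97 and Irf8, an interferon-responsive factor of myeloid cells, by 1.93 on the log2 scale (edgeR adjusted p = 6.20e-05 and 3.86e-05). Irf1, which binds the interferon-stimulated response element, had 35.9, 18.55 and 31.03 CPM in AKO libraries, against 18.47, 19.1 and 20.1 CPM in WT libraries. AKO replicate 2 lay within the WT values, and the call of Irf1 (0.57 ± 0.21 SE, edgeR adjusted p = 0.0451) was lost in 6 of the 15 alternatives, among them those without AKO replicate 1 (0.37), AKO replicate 3 (0.51) or any of the WT libraries (0.54 to 0.59). The transcript of interferon-γ itself, Ifng, had no read in AKO libraries and at most 3 reads in a WT library.

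Among the lists of immune cell markers, that of macrophages moved with these genes. Of 12 macrophage markers, 10 rose (83.3%, against 20.2% of all genes tested), with a median log2 fold change of 2.03 over the 12. Their summed level was 1138, 870 and 1210 CPM in AKO libraries, against 304, 250 and 265 CPM in WT libraries. Cd163 (-0.06) and Mertk (0.36) were not called (edgeR adjusted p = 0.835 and 0.114). Markers of T and NK cells were near the limit of detection, with a summed level of 8.13 to 14.0 CPM in AKO and 1.78 to 6.96 CPM in WT, and the only one tested, Cd4, rose. B cell markers summed to 3.05 to 18.1 CPM in AKO and 1.401 to 3.69 CPM in WT, with none of the 6 tested. The 6 neutrophil markers summed to 1.28 to 4.07 CPM in AKO and 1.32 to 5.86 CPM in WT, and Ly6g among them was at 0 in every library. Of 3 dendritic cell markers tested 2 rose, Clec9a by 1.33 and Ccr7 by 2.38 on the log2 scale, both at low levels. Zbtb46 was not called (-0.16). The dendritic cell list summed to 26.4 to 33.0 CPM in AKO and 24.7 to 34.7 CPM in WT. Most of this sum was Zbtb46, at 24.8, 20.1 and 24.6 CPM in AKO libraries, against 31.3, 23.7 and 22.7 CPM in WT libraries. The sum therefore says little about the other markers of the list. In bulk tissue more cells of a type and more RNA per cell cannot be told apart, and the part of these cells in the rise of Psmb8, Psmb9 and Psmb10 was not tested.

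The genes of the 26S particle, 31 subunits of the α ring, the standard β ring, the ATPases and the non-ATPases, make up most of the proteasome genes. None of the 31 rose and 11 fell (35.5%, against 17.5% of all genes tested), and every AKO library lay below every WT library in 14 of them, against 24.4% of all genes tested. Their median log2 fold change was -0.24, within a range of -0.62 to 0.23, and 27 of the 31 were negative. Per kb of transcript their levels ran from 26.5 CPM per kb for Psmb1 to 132.5 CPM per kb for Psmb2 in AKO, with a median of 58.3, and from 27.7 to 164 CPM per kb in WT for the same genes, with a median of 66.5. The immune-induced catalytic subunits were below this range, at 11.4, 22.6 and 20.5 CPM per kb for Psmb9, Psmb8 and Psmb10 in AKO and 2.68, 10.7 and 11.3 CPM per kb in WT. The median of the 31 stayed negative under every scaling, at -0.14 with library totals alone, where the median of all genes stood at 0.10, 24 of the 31 were negative and 5 were called.

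The number of calls among these subunits turned on single libraries. The median of the 31 stayed negative with any 1 library left out, at -0.35 to -0.18, and 24 to 29 of them were negative. Without AKO replicate 3 or without WT replicate 3, 4 of the 31 were called lower (12.9%), a share near the 12.6% and 12.1% of all genes called lower in those analyses. Without AKO replicate 2, WT replicate 1 or WT replicate 2 there were 6 (19.4%, against 14.5, 13.7 and 11.9% of all genes). Without AKO replicate 1 there were 16 (51.6%, against 18.2% of all genes). AKO replicate 1 was the highest of the AKO libraries in 30 of the 31 subunits. Over the 31, the median of log2 CPM over the WT mean was -0.07, -0.32 and -0.34 in AKO replicates 1 to 3, against -0.01, 0.04 and -0.03 in WT replicates 1 to 3. By this median AKO replicate 1 lay close to WT and the other AKO libraries below it, as the map of these subunits by library shows. Gene by gene, AKO replicate 1 was below every WT library in 14 of the 31 and above every one in 6. AKO replicates 2 and 3 were below every WT library in 24 and 27, and above in 1 and 2. Psma4, Psmd3 and Psmd13 were the subunits called lower under all 15 alternatives.

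**Figure D4:**
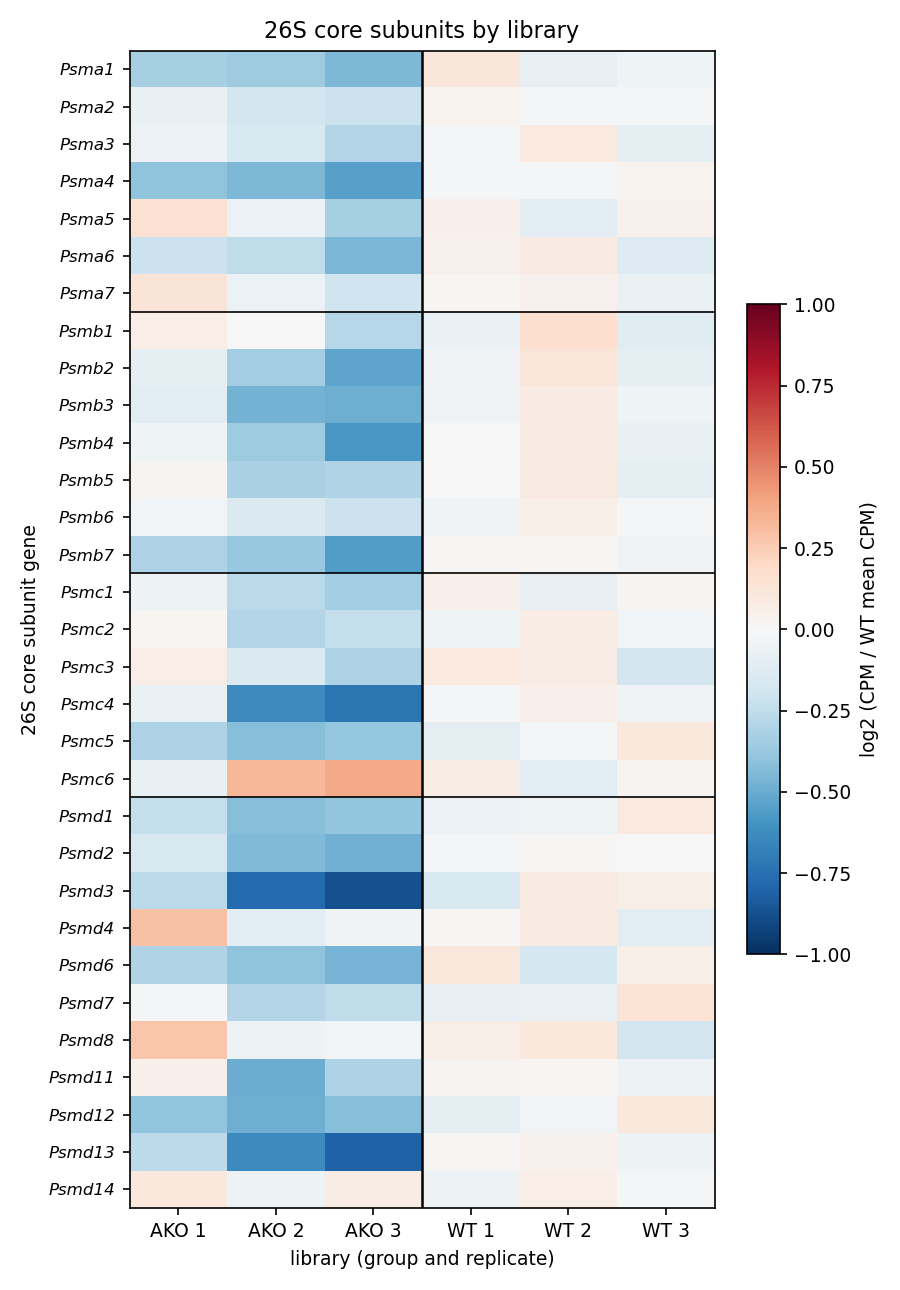
log2 of CPM over the WT mean CPM (colour) for each of the 31 subunit genes of the 26S particle (rows, with lines between α ring, β ring, ATPases and non-ATPases) in the AKO libraries (left) and WT libraries (right). AKO replicates 2 and 3 are mostly blue (medians -0.32 and -0.34) while AKO replicate 1 is close to white (-0.07), and Psmc6 is red in AKO replicates 2 and 3.

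Other features of the libraries ran alongside. All 8 skeletal muscle markers rose, against 20.2% of all genes tested. They summed to 713, 1512 and 1434 CPM in AKO replicates 1 to 3, and to 330, 49.8 and 325 CPM in WT replicates. Of 8 brown adipocyte markers 7 fell (87.5%, against 17.5% of all genes tested). They summed to 9472, 7410 and 5960 CPM in AKO, against 20800, 20610 and 19710 CPM in WT. Mitochondrially encoded mRNAs took 23.0, 28.6 and 26.7% of all counts in AKO, against 20.1, 20.6 and 20.5% in WT. By these sums and shares AKO replicate 1 was the AKO library nearest to WT, but the brown adipocyte sum was mostly Ucp1. Singly, AKO replicate 1 was nearest to WT in Ucp1, Elovl3, Prdm16 and Ppara. In Cidea, Dio2, Cox7a1 and Cox8b AKO replicate 2 was nearest. With mitochondrially encoded genes left out of the scaling, 10 of the 31 subunits were called lower. Of 8 fibroblast markers 5 rose (62.5%, against 20.2% of all genes tested). Their sums were 1314, 1204 and 1117 CPM in AKO replicates 1 to 3, and 454 to 615 CPM in WT. Here AKO replicate 1 lay farthest from WT. Of 8 general adipocyte markers 1 rose (12.5%) and 3 fell (37.5%), against 20.2% and 17.5% of all genes tested. They summed to 13190, 12800 and 9384 CPM in AKO replicates 1 to 3, and to 14520 to 16890 CPM in WT. Of 7 endothelial markers 1 rose (14.3%) and 2 fell (28.6%). Their sums were 826, 701 and 840 CPM in AKO replicates 1 to 3, and 835 to 890 CPM in WT. AKO replicate 1 was nearest to WT in the adipocyte sum, and AKO replicate 3 in the endothelial sum. The part of these features in the lower subunit levels was not tested.

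In the α ring, which gates the core, 2 of 7 genes fell (28.6%, against 17.5% of all genes tested). All 7 log2 fold changes were negative (median -0.16). Psma4 had 85.8, 83.0 and 77.6 CPM in AKO libraries, against 113, 112 and 116 CPM in WT libraries. The 2 sets were well apart and each was tight (log2 fold change -0.46 ± 0.11 SE, edgeR adjusted p = 0.00670). Psma1 had 113, 111 and 105 CPM in AKO libraries, against 154, 135 and 138 CPM in WT libraries (-0.38 ± 0.12 SE, edgeR adjusted p = 0.0237), a call lost without AKO replicate 3, WT replicate 1 or WT replicate 3 and with library totals alone. Psma2 and Psma6 were also below WT in every AKO library but were not called. In the standard β ring only Psmb7 fell (14.3%, against the same share), and the median of the 7 genes was -0.31. The structural subunit Psmb3 missed the threshold at -0.35 ± 0.13 (SE; edgeR adjusted p = 0.0541).

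Among the ATPases, the ring of motor subunits at the base of the cap, 2 of 6 genes fell, against 17.5% of all genes tested. Psmc5 had 92.5, 85.1 and 87.7 CPM in AKO libraries, against 107, 113 and 123 CPM in WT libraries (log2 fold change -0.37 ± 0.12 SE, edgeR adjusted p = 0.0249), and was called in 10 of the 15 alternatives. Psmc4 had 156, 105 and 98.7 CPM in AKO libraries, against 162, 170 and 160 CPM in WT libraries. Its AKO replicate 1 was barely below WT while the others were far below, and the call (-0.45 ± 0.16 SE, edgeR adjusted p = 0.0456) was made in 6 of the 15 alternatives and lost whenever a library other than AKO replicate 1 was left out. Psmc6 was the one ATPase with a positive value, at 73.1, 97.2 and 100 CPM in AKO libraries, against 81.3, 71.6 and 78.4 CPM in WT libraries (0.23 ± 0.14 SE, edgeR adjusted p = 0.224). In this gene AKO replicates 2 and 3 lay above every WT library, and without AKO replicate 1 it was called higher at 0.36 (adjusted p = 0.0292). It was named here after its values were seen.

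The non-ATPases held the most calls, with 6 of 11 genes lower, against 17.5% of all genes tested, and a median of -0.35. The count was 3 without AKO replicate 2, AKO replicate 3 or WT replicate 1 and with library totals alone, 2 without WT replicate 3, and 7 without AKO replicate 1. Over these analyses 12.1 to 18.2% of all genes were called lower. Psmd3, Psmd12, Psmd13 and Psmd6 belong to the scaffold of the lid, the part of the cap that holds the deubiquitinating subunit. Psmd3 had 125, 88.4 and 82.6 CPM in AKO libraries, against 136, 161 and 158 CPM in WT libraries (log2 fold change -0.62 ± 0.16 SE, edgeR adjusted p = 0.00922). Psmd13 had 67.7, 52.2 and 46.4 CPM in AKO libraries, against 81.9, 83.4 and 78.1 CPM in WT libraries (-0.55 ± 0.14 SE, edgeR adjusted p = 0.00970). In both, AKO replicate 1 was nearest to WT. Psmd12 had 80.0, 75.1 and 78.3 CPM in AKO libraries, all alike, against 98.9, 104 and 113 CPM in WT libraries (-0.44 ± 0.12 SE, edgeR adjusted p = 0.0108), a call lost without WT replicate 3. Psmd6 and the large base subunits Psmd1 and Psmd2, which dock ubiquitin receptors and shuttle factors, fell by 0.39, 0.35 and 0.35 on the log2 scale (edgeR adjusted p = 0.0264, 0.0351 and 0.0426), and these were called in 10, 7 and 7 of the 15 alternatives. The deubiquitinase Psmd14 and the ubiquitin receptor Psmd4 were not called, at 0.04 and 0.06, nor was Psmd8, the most abundant of the 11 per kb of transcript (119 CPM per kb in AKO and 113 CPM per kb in WT), with 263 ± 33.8 CPM in AKO and 250 ± 26.03 CPM in WT (SD, n = 3 each; 0.08 ± 0.14 SE, edgeR adjusted p = 0.7001). The lid subunits Psmd3, Psmd6 and Psmd12, like Psma1, Psmc4 and Psmc5, share no 50-base stretch with another annotated gene, whereas for Psmd2, Psma4 and Psmd13 the shares were 25.6, 23.7 and 11.8%.

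Of the activators and the inhibitor outside the subset, 1 of 3 fell, against 17.5% of all genes tested. Psme4, or PA200, a nuclear activator known for its part in degrading acetylated histones, had 62.4, 70.9 and 71.2 CPM in AKO libraries, against 103, 86.8 and 105 CPM in WT libraries. AKO replicate 1 was here the lowest library, and the groups were well apart. It fell by 0.53 ± 0.13 (SE) on the log2 scale (edgeR adjusted p = 0.00568), and the call held in all 15 alternatives. Psme3, the nuclear PA28γ, was at 138 ± 20.8 CPM in AKO and 164 ± 6.71 CPM in WT (-0.25 ± 0.13 SE, edgeR adjusted p = 0.151), and the inhibitor Psmf1 at 22.0 ± 2.10 CPM in AKO and 20.7 ± 1.13 CPM in WT (SD, n = 3 each).

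The assembly chaperones showed no calls. For the base of the cap, Psmd5, the one with the most reads, was at 26.02 ± 5.09 CPM in AKO and 25.4 ± 1.44 CPM in WT, and the median of the 3 genes was -0.20 on the log2 scale. Of the 4 chaperones of the 20S core, which build the α ring, Psmg1, the one with the most reads, was at 17.0 ± 0.987 CPM in AKO and 16.0 ± 1.97 CPM in WT (SD, n = 3 each), and the median was 0.21. Psmg2, which works as a dimer with Psmg1, lay above WT in every AKO library (0.37 ± 0.17 SE, edgeR adjusted p = 0.105) and Psmg3, the partner of Psmg4, below (-0.57 ± 0.22 SE, edgeR adjusted p = 0.0552), neither of them called. The maturation factor Pomp, which lies outside the name rule, was at 56.7 ± 3.57 CPM in AKO and 60.9 ± 4.67 CPM in WT (-0.10 ± 0.12 SE, edgeR adjusted p = 0.535).

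Psma8, the testis form of an α subunit, and Psmb11, the β subunit of thymic epithelium, did not pass the filter. Psma8 had 0, 3 and 2 reads in AKO libraries and 3, 0 and 0 reads in WT libraries, and Psmb11 had 0, 1 and 1 in AKO and 2, 0 and 1 in WT. Neither rose over the 3 reads that a count of 0 allows, which here is 0.360 to 0.427 CPM, so no fold is given. Psmc3ip, matched by the name rule although it codes for a meiotic recombination factor, had only 13, 3 and 9 reads in AKO and 13, 14 and 21 reads in WT, and was not called, at -0.92 ± 0.45 (SE) on the log2 scale (edgeR adjusted p = 0.126).

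Of 24 ubiquitin and proteasome partners tested outside the name rule, 3 rose (12.5%, against 20.2% of all genes tested) and 6 fell (25.0%, against 17.5%), and the median was -0.08 on the log2 scale. The polyubiquitin gene Ubb had 802, 804 and 722 CPM in AKO libraries, against 457, 414 and 318 CPM in WT libraries, with all AKO libraries far above WT (0.97 ± 0.15 SE, edgeR adjusted p = 3.26e-04), and 48.1% of its 50-base stretches occur in other genes. Zfand5, a zinc finger protein that binds and activates the 26S proteasome, rose by 0.67 (edgeR adjusted p = 0.00283). The proteasome-bound ubiquitin ligase Ube3c fell by 0.53 and the shuttle factor Ubqln1 by 0.60 on the log2 scale (edgeR adjusted p = 0.00339 and 0.00347). Adrm1, a ubiquitin receptor docked on Psmd1 and named here after its values were seen, had 142, 92.4 and 108 CPM in AKO libraries, against 175, 188 and 164 CPM in WT libraries (-0.62 ± 0.15 SE, edgeR adjusted p = 0.00720). Like most 26S subunits, it was highest in AKO replicate 1 among the AKO libraries.

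Nfe2l1 itself was not called. It had 414, 375 and 394 CPM in AKO libraries, against 384, 510 and 505 CPM in WT libraries, and WT replicate 1 lay within the AKO values (log2 fold change -0.24 ± 0.14 SE, edgeR adjusted p = 0.188). Its activity is set largely after transcription, so its mRNA level does not measure it. Of the 9 genes of its pathway, 4 rose and 1 fell, against 20.2% and 17.5% of all genes tested. Mafk, a small MAF partner, rose by 1.00 ± 0.12 (SE; edgeR adjusted p = 6.77e-05), with 60.5, 67.6 and 57.6 CPM in AKO libraries, against 30.7, 31.1 and 31.1 CPM in WT libraries. Sel1l and Syvn1, partners in the ligase that turns over endoplasmic reticulum proteins including NFE2L1, moved apart, Sel1l by 0.41 and Syvn1 by -0.61 (edgeR adjusted p = 0.0122 and 0.00330). Maff rose by 0.69 and the related factor Nfe2l2 by 0.37 (edgeR adjusted p = 0.0287 and 0.0293). Both calls were lost without AKO replicate 2 or any of the WT libraries. That of Nfe2l2 was also lost without AKO replicate 3 and when every gene with a count was tested. The call of Sel1l was lost without WT replicate 2 or 3.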

How the data were processed

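BAT of 3 AKO and 3 WT mice was collected after 4 h at 4 °C. RNA was enriched with oligo(dT) beads and sequenced as DNA nanoballs. The authors deposited raw counts per gene as whole numbers, 1 column per library, and no such column was left unused. Per the study's methods, reads were aligned by STAR, HTSeq did the counting and DESeq2 the testing. The submitters' processing notes list other tools, Bowtie2 and RSEM 1.3.1 (besides DESeq2 1.4.5 and the build mm10), so the aligner and counter are uncertain. Not given in the sources used here are the strand setting, the handling of reads with several matches and the annotation release. In 27 rows, with 0.134% of all counts, symbols had been turned into dates.

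Of 22147 genes with a count above 0, filterByExpr left 13007, which removed 0.226% of counts. Counts were scaled by TMM (factors 0.930 to 1.08) and tested with edgeR 4.0.16 (quasi-likelihood, genotype as the only term) in R 4.3.3, with Benjamini-Hochberg adjustment over all genes tested and a threshold of 0.05. Levels are CPM on the scaled library size. The depth of 6540619 to 8461685 counts per library allows 3 reads, or 0.360 to 0.427 CPM, at a count of 0, which covers counting error only. The spread between libraries of the same genotype exceeded counting noise (chi-square per degree of freedom 5.17 to 17.6). The labels call the mice littermates, and no source says that a library pools animals. On simulated counts for this comparison, over 12820 genes, edgeR recovered 87% of the genes given a log2 change of 1 and 100% of those given 2, and 6.03% of calls were false. The simulation changed 200 genes, far fewer than were called in the data, and none by less than 1. Its shares therefore do not cover the lower proteasome calls, which were all smaller than 1.

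Transcript lengths (the union of exons of basic protein-coding transcripts), shared 50-base stretches and exon overlaps came from GENCODE vM21. Positions and start-site windows came from RefSeq for GRCm38.p6. Ratios of subunits were compared with an exact permutation test (two-sided, 20 arrangements of the libraries). The members and the lists of partners, pathway genes and cell type markers were chosen with earlier results of these data known. Named in full were the immune-induced genes, Psmb5, Psmb6, Psmb7 and, in each other group, up to 3 called genes of lowest p or, with no call, the gene of highest mean level. From each list outside the name rule, Nfe2l1, Nfe2l2, Pomp, Irf1, Nlrc5 and up to 4 called genes of lowest p were named, and 1 gene that the rule names is not reported here. Alternatives were RLE or upper-quartile factors, library totals alone, mitochondrially encoded genes left out, DESeq2 1.42.0, limma-voom (limma 3.58.1), testing every gene with a count, a minimum mean of 5 CPM, a replicate block, and each library left out in turn.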

Additional observations from a re-analysis of the deposited data

How the results depend on the processing

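The 12 lower calls among proteasome genes became 6 with library totals alone and 5 to 19 when 1 library was left out. The 11 among the 26S subunits became 5 with library totals alone and 4 to 16 when 1 library was left out. Of all genes, 12.4% were called lower with library totals alone and 11.9 to 18.2% when 1 library was left out. Of the proteasome calls, 3 of 15 were higher with TMM, 30.8% with upper-quartile factors (4 higher, 9 lower) and 40.0% with library totals alone (4 higher, 6 lower), and over all genes 53.6% with TMM and 65.2% with library totals alone. Psmb8, Psmb9 and Psmb10 stayed higher and Psma4, Psmd3, Psmd13 and Psme4 lower in all 15 alternatives, and Psme1 was called in 3 of them. Psmd8, never called, ranged from -0.031 (without AKO replicate 1) to 0.13 on the log2 scale when 1 library was left out, and was also negative without WT replicate 3 (-0.018). The cause was not tested. With replicate numbers as a block (replicate block), 3 proteasome genes were called higher and 12 lower, 11 of them 26S subunits, and the paired difference of the Psmb9 to Psmb6 ratio stayed at 2.28 (exact p = 0.25, the smallest that 3 pairs allow). The deviations of libraries with the same number correlated at -0.02, 0.01 and 0.17 over genes, so the numbers were not taken to pair the mice. Depth limits Psmb9 in WT, at 20 to 39 reads, and Psma8 and Psmb11, at no more than 3.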
